A study of Homo sapiens with 12 samples.

Results

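The genes described here are 10 transcripts that the RAS-MAPK pathway switches on through its last kinase, ERK: the phosphatases DUSP4, DUSP5 and DUSP6, the inhibitors SPRY2, SPRY4, SPRED1 and SPRED2, the transcription factors ETV4 and ETV5, and PHLDA1. They were taken by name from a table of 60656 gene IDs. All 10 were found, and all 10 passed the filter on low counts that left 19636 genes for testing. The RNA came from 3 established lines of human metastatic melanoma, A2058, A375 and SKMEL-5. Cultures were kept either at atmospheric oxygen (normoxia, the study's reference) or at 1% oxygen (hypoxia), with 2 libraries per line and condition that the design text calls biological duplicates, 12 libraries in 6 groups. The labels name no transgene, drug or driver mutation for any line and no duration of the hypoxic culture.

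In the MAPK pathway, growth factor receptors load RAS with GTP, RAS recruits RAF kinases, RAF activates MEK, and MEK activates ERK. ERK then drives transcription, and several of the genes it switches on act back on the pathway: dual-specificity phosphatases remove the activating phosphates from ERK, and Sprouty and SPRED proteins act further up, between receptors, RAS and RAF. In melanoma the pathway is often held active by mutations, and the transcripts of these genes are used as a readout of ERK activity.

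Library totals ran from 33831569 to 54202819 counts. CA9, a carbonic anhydrase induced by low oxygen, was at most 19.0 CPM (counts per 1000000 library counts, after scaling) in the normoxic libraries. In the hypoxic ones it was at least 352 CPM. Its normoxic level was higher in replicate 1 than in replicate 2 of each line. For A2058 this was 19.0 against 0.0826 CPM, for A375 4.91 against 0.805 CPM, and for SKMEL-5 9.81 against 0.223 CPM. The normoxic replicates were thus unlike each other for CA9, and the cause was not tested. Of 10 hypoxia marker genes 7 rose, against 0.978% of all tested genes (VEGFA by 1.82 ± 0.26 on the log2 scale, SE). With 1 library left out, the log2 rise ran from 6.437 to 9.035 for CA9 and from 1.551 to 1.997 for VEGFA. Neither gene passed an adjusted p of 0.05 in every such fit, so rises of this size could be missed with 1 library fewer. One hypoxic library per line stood apart, replicate 2 of A2058 and replicate 1 of A375 and of SKMEL-5: on the first component of within-line variation, which held 47.1% of the variance, they scored 72.7, 132 and 108, and every other library was below 0. Mitochondrial genes took 20.1% of the counts in A2058 normoxia 1 and 0.648 to 7.64% elsewhere, and the part of this share in the results was not tested. The melanocyte genes TYR and MLANA had 0 counts in all libraries labelled A375 and SKMEL-5, and SOX10, which marks the melanocyte lineage, was at 765 CPM or more in each of them. Correlations of log2 CPM between A375 and SKMEL-5 libraries, 0.912 to 0.990, overlapped those among A375 libraries, 0.917 to 0.982, and 2 of 19636 genes differed between the names. The A375 and SKMEL-5 values below are therefore not taken as a repeat in an independent line.

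**Figure D1:**
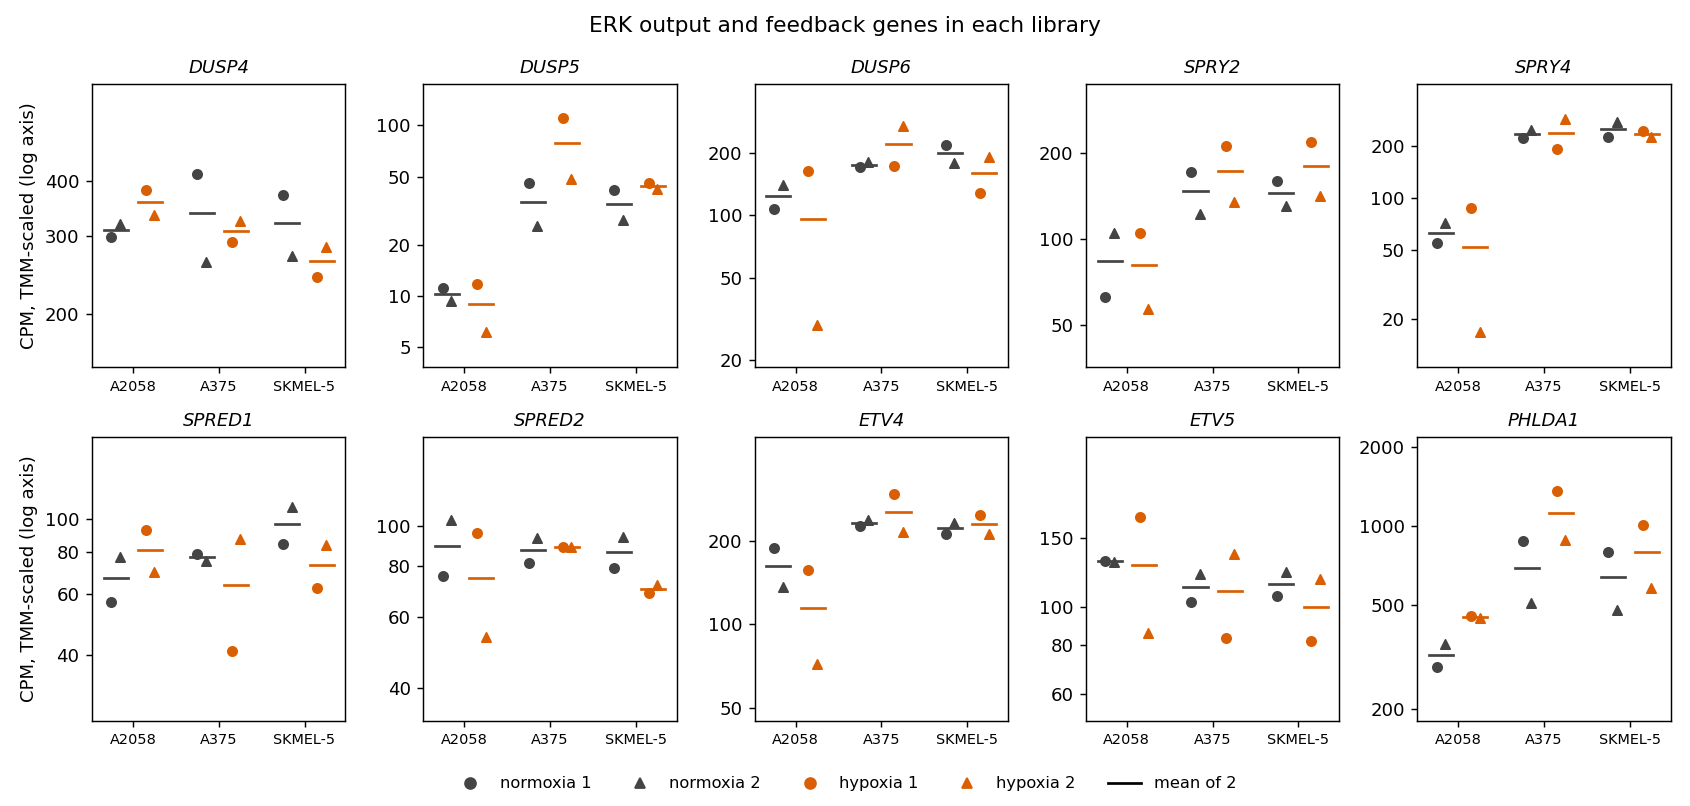
Level of each of the 10 genes in every library, as TMM-scaled CPM on a log axis that differs between panels; points are libraries, shapes are replicate numbers, colours are oxygen conditions and short lines are means of 2. DUSP5, SPRY2, SPRY4, ETV4 and PHLDA1 were lower in all 4 A2058 libraries than in any other library, and in A2058 hypoxia 2 DUSP6 was at 29.6 CPM and SPRY4 at 16.9 CPM.

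No change under low oxygen was detected in any of the 10 genes, and the 10 were not tested as a set. None passed edgeR's quasi-likelihood test in the mean of the 3 lines, where 1.12% of all tested genes passed, and none had an unadjusted p under 0.05. The log2 differences (hypoxia over normoxia) ran from -0.18 for SPRED2 to 0.50 for PHLDA1, 3 above and 7 below 0, with a median of -0.10 beside 0.02 over all tested genes. DESeq2 and limma-voom also called none of the 10. The 95% intervals show what size of change these libraries leave possible: that of SPRED2 ran from -0.62 to 0.26, and that of DUSP6 from -0.89 to 0.66. Those of DUSP5 and PHLDA1 reached up to 1.04 and 1.07. In bulk RNA a lower level in every cell cannot be told apart from fewer cells that express the gene.

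**Figure D2:**
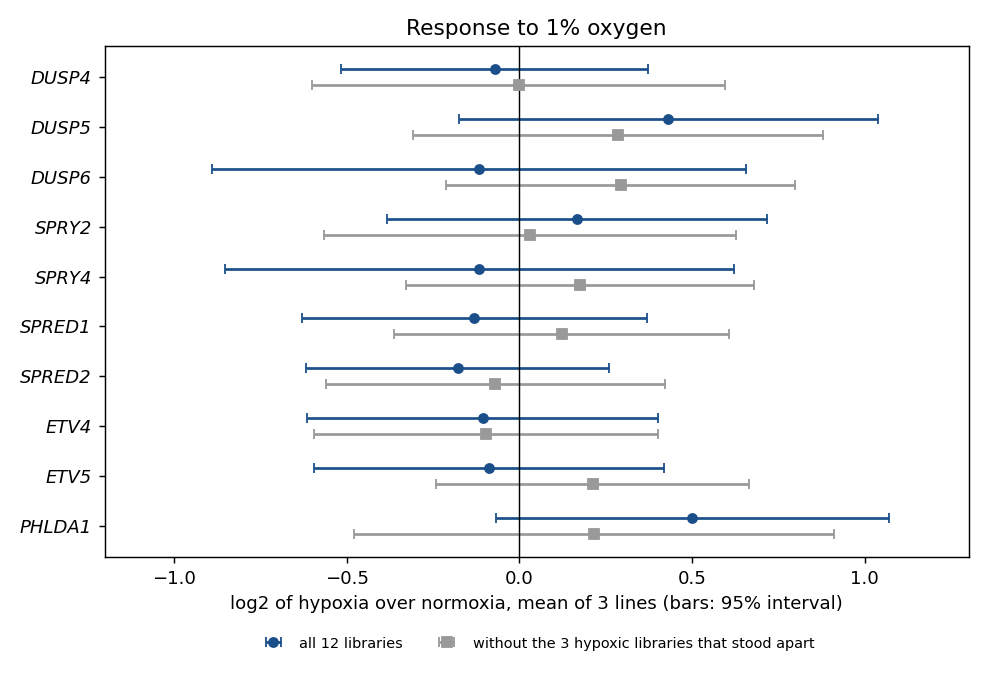
log2 of hypoxia over normoxia for each gene, averaged over the 3 lines, with 95% intervals; circles are from all 12 libraries and squares from the fit without the 3 hypoxic libraries that stood apart. Every interval holds 0, and DUSP6, SPRY4, SPRED1 and ETV5 changed sign between the fits, DUSP6 from -0.12 to 0.29.

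Among the phosphatases, DUSP6 (ENSG00000139318, chr12:89347232-89353271, minus strand, GRCh38) encodes a cytoplasmic enzyme that acts on ERK. It stood at 107 and 141 CPM in A2058 normoxia (replicates 1 and 2 here and below) and at 163 and 29.6 CPM in A2058 hypoxia. In A375 it was at 171 and 181 CPM in normoxia and 172 and 271 CPM in hypoxia. In SKMEL-5 the values were 219 and 180 CPM in normoxia and 129 and 191 CPM in hypoxia. The 2 hypoxic A2058 libraries lay on either side of the normoxic ones, and in the other lines the conditions overlapped. The mean log2 difference was -0.12 ± 0.35 (SE; edgeR adjusted p = 0.897), and it was 0.15 without A2058 hypoxia 2 and -0.69 without A2058 hypoxia 1 (adjusted p = 0.147), so that its direction rested on which of these libraries was used.

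DUSP5 (ENSG00000138166, chr10:110497838-110511544, plus strand), a nuclear phosphatase of ERK, had the lowest level per exon length of the 10 in A2058. It had 11.2 and 9.31 CPM in A2058 normoxia and 11.7 and 6.12 CPM in A2058 hypoxia. A375 had 45.7 and 25.7 CPM in normoxia and 110 and 48.6 CPM in hypoxia. SKMEL-5 had 41.7 and 27.9 CPM in normoxia and 45.7 and 42.5 CPM in hypoxia. Hypoxic libraries lay above normoxic ones in A375 and SKMEL-5, which 18.1% and 18.5% of all tested genes also did, and straddled them in A2058. In A375 the log2 difference was 1.15 ± 0.48 (95% interval 0.09 to 2.21), the only one of the 10 in any line with an unadjusted p under 0.05 (0.0357); its edgeR adjusted p was 0.840, and 0% of all tested genes were called in A375. It ran from 0.405 without A375 hypoxia 1 to 1.61 without A375 normoxia 1. Over the 3 lines the difference was 0.43 ± 0.28 (adjusted p = 0.406).

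DUSP4 (ENSG00000120875, chr8:29333064-29350668, minus strand), a nuclear phosphatase with ERK among its substrates, had like levels in the 3 lines. Its means were 334 ± 35.1 CPM in A2058, 323 ± 66.4 CPM in A375 and 292 ± 55.9 CPM in SKMEL-5 (SD, n = 4 libraries of both conditions), an order in which neighbours differed by less than their SD. Hypoxic A2058 libraries, at 381 and 335 CPM, lay above the normoxic ones at 299 and 319 CPM, as for 20.5% of all tested genes, and none of the 10 genes had the reverse order in A2058, which 18.6% had. The difference over the 3 lines was -0.07 ± 0.20 on the log2 scale (adjusted p = 0.890).

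Of the Sprouty genes, whose products restrain signalling between receptors and RAS or RAF, SPRY4 (ENSG00000187678, chr5:142310427-142326455, minus strand) had 54.9 and 71.3 CPM in A2058 normoxia and 87.3 and 16.9 CPM in A2058 hypoxia. A375 had 222 and 249 CPM in normoxia and 191 and 287 CPM in hypoxia, and SKMEL-5 had 225 and 275 CPM in normoxia and 244 and 224 CPM in hypoxia. The split of the A2058 hypoxic libraries was that seen for DUSP6, and the highest A2058 value was below the lowest value of either other line. The hypoxia difference was -0.12 ± 0.34 (adjusted p = 0.893), 0.14 without A2058 hypoxia 2 and -0.66 without A2058 hypoxia 1 (adjusted p = 0.140).

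SPRY2 (ENSG00000136158, chr13:80335976-80340951, minus strand) was at 62.9 and 105 CPM in A2058 normoxia and 105 and 57.1 CPM in A2058 hypoxia. In A375 it was at 171 and 123 CPM in normoxia and 211 and 135 CPM in hypoxia, and in SKMEL-5 at 160 and 130 CPM in normoxia and 218 and 141 CPM in hypoxia. Conditions overlapped in every line, and the A2058 libraries were again the 4 lowest. The hypoxia difference was 0.17 ± 0.25 (adjusted p = 0.753).

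Stretches before annotated start sites of both Sprouty genes are shown because their levels differed between lines and because ETV4 and ETV5, which bind the ETS core, are among the genes measured. They were read from RefSeq (GRCh38.p14), which gave start-site windows of 300 bases for 6 of the 10 genes, 9 windows in all. SPRY2 has 3 windows, of which only the one shown holds the ETS core, and SPRY4 has 1. The first stretch, for SPRY2 on the minus strand, is chr13:80341127-80341376, with the ETS core CCGGAA in capitals, its first base 142 bases before the start. The second, for SPRY4 on the minus strand, is chr5:142324418-142324497, with no match. It has 80 bases beside 250 for SPRY2, because it was cut at the first annotated exon base. The bases nearest the start are therefore not shown for SPRY4. The whole SPRY4 window, chr5:142324198-142324497, had no match either and lies within the gene's annotated span. The stretches are thus unlike in length and place.
SPRY2: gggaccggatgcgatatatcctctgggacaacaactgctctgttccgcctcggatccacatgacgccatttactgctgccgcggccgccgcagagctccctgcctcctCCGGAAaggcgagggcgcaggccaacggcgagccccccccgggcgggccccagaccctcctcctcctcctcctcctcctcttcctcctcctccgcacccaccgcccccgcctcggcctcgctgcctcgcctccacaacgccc
SPRY4: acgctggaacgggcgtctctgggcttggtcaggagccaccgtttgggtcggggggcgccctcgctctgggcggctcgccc
Searched on both strands, CCGGAA also occurred once in the PHLDA1 window, and it was in 17.2% of all 35116 windows. The HIF core ACGTG was in none of the 9 windows and in 21.4% of all windows. The AP-1 core TGANTCA was in 1 of the 2 SPRED2 windows, with 2 matches, and in 7.71% of all windows. A match is a description of letters, and these counts were not tested.

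SPRED1 (ENSG00000166068, chr15:38252326-38357249, plus strand) and SPRED2 (ENSG00000198369, chr2:65310851-65432637, minus strand) encode membrane-bound inhibitors, of which SPRED1 brings the RAS inactivator neurofibromin to the membrane. SPRED1 ran from 56.9 to 92.3 CPM in A2058, 41.0 to 87.1 in A375 and 62.4 to 108 in SKMEL-5. SPRED2 ran from 53.3 to 103 CPM in A2058, 81.2 to 93.8 in A375 and 68.5 to 93.9 in SKMEL-5. The ranges of the lines overlapped for both genes. In SKMEL-5 both genes were lower in the hypoxic than in the normoxic libraries, as were 19.7% of all tested genes. Over the 3 lines SPRED1 differed by -0.13 ± 0.23 (adjusted p = 0.795) and SPRED2 by -0.18 ± 0.20 (adjusted p = 0.652).

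ETV4 (ENSG00000175832, chr17:43527844-43579620, minus strand) and ETV5 (ENSG00000244405, chr3:186046308-186110318, minus strand) encode ETS-family transcription factors of the PEA3 group that act downstream of ERK. ETV4 was at 189 and 136 CPM in A2058 normoxia and 157 and 72.0 CPM in A2058 hypoxia. In A375 it was at 226 and 238 CPM in normoxia and 294 and 215 CPM in hypoxia, and in SKMEL-5 at 210 and 232 CPM in normoxia and 247 and 212 CPM in hypoxia. Its paralog ETV5 did not show this step between lines, with 85.8 to 170 CPM in A2058, 83.3 to 137 in A375 and 82.0 to 123 in SKMEL-5. Hypoxia differences were -0.11 ± 0.23 for ETV4 (adjusted p = 0.845) and -0.09 ± 0.23 for ETV5 (adjusted p = 0.879).

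PHLDA1 (ENSG00000139289, chr12:76025447-76033932, minus strand), a pleckstrin homology-like protein induced by growth factor signalling, had the highest level per exon length in every group but A2058 normoxia. A2058 had 289 and 352 CPM in normoxia and 454 and 443 CPM in hypoxia. A375 had 875 and 508 CPM in normoxia and 1361 and 881 CPM in hypoxia, and SKMEL-5 had 793 and 478 CPM in normoxia and 1008 and 580 CPM in hypoxia. The hypoxic libraries were above the normoxic ones in A2058 and A375, as for 20.5% and 18.1% of all tested genes. In SKMEL-5 the conditions overlapped. The 3-line difference, 0.50 ± 0.26 (95% interval -0.07 to 1.07), was the largest of the 10 and did not pass (unadjusted p = 0.0790, adjusted p = 0.314); without the 3 libraries that stood apart it was 0.22 ± 0.30.

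Reads of some of these genes may belong to neighbours, because the strand setting of the counting is not given. DUSP6 overlaps the antisense transcript ENSG00000274021, ETV4 overlaps DHX8, ETV5 overlaps DGKG and ETV5-AS1, PHLDA1 overlaps PHLDA1-AS1 and PHLDA1-DT, and SPRY4 overlaps SPRY4-AS1. Reads of such pairs cannot be told apart here.

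Divided by exon length, so that genes can be set beside each other, PHLDA1 led in every group but A2058 normoxia, where ETV4 was first at 44.9 ± 10.4 CPM per kb (SD, n = 2), followed by DUSP4 at 42.6 ± 1.94 and PHLDA1 at 39.7 ± 5.58; the ranges of 1 SD of these neighbours overlapped. In A375 normoxia PHLDA1 was at 85.7 ± 32.1 CPM per kb and ETV4 at 64.3 ± 2.26, again overlapping. At the low end stood DUSP5 in A2058, with 3.91 ± 0.50 CPM per kb in normoxia and 3.41 ± 1.51 in hypoxia. In the other lines the lowest was SPRED1, between 7.75 ± 3.94 CPM per kb in A375 hypoxia and 11.7 ± 2.02 in SKMEL-5 normoxia.

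By line, 0 of the 10 genes were called for hypoxia in any line by edgeR, beside 0.0102% of all tested genes in A2058 (0.00509% in each direction) and 0% in A375 and SKMEL-5. No member had hypoxic libraries above normoxic ones in each line, or below them in each line, which 4.86% and 2.79% of all tested genes did. Differences between the lines in the response were tested with an F test and called for none of the 10 (adjusted p of 1 for each; 0 under an unadjusted 0.05), and for 0% of all genes. With A375 alone beside A2058 the log2 differences ran from -0.18 to 0.59, and with SKMEL-5 alone beside A2058 from -0.34 to 0.40, with 0 called in each.

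Levels of some of the 10 genes differed between A2058 and the other lines. Over both oxygen conditions, 5 of the 10 genes were lower in A2058 than in A375 and 0 were higher, beside 14.2% of all tested genes called lower and 13.4% called higher, 27.6% in all. DUSP5 was 5.56-fold lower, at -2.47 ± 0.36 on the log2 scale (edgeR adjusted p = 4.39e-04), and SPRY4 was 4.14-fold lower, at -2.05 ± 0.43 (adjusted p = 0.00440). PHLDA1 was 2.32-fold lower (-1.22 ± 0.32, adjusted p = 0.0160), SPRY2 1.93-fold lower (-0.95 ± 0.31, adjusted p = 0.0403) and ETV4 1.78-fold lower (-0.84 ± 0.28, adjusted p = 0.0494). DUSP6 had -0.85 ± 0.43 and did not pass (adjusted p = 0.172). For DUSP4, SPRED1, SPRED2 and ETV5 the values lay between -0.11 and 0.22, and the widest of their intervals, that of ETV5, ran from -0.40 to 0.84. The median of the 10 was -0.85 beside -0.06 over all tested genes.

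Against SKMEL-5, 3 of the 10 were lower in A2058 and 0 higher, beside 13.9% and 12.9% of all tested genes. The same A2058 libraries enter both comparisons. DUSP5 was 4.09-fold lower (-2.03 ± 0.35, adjusted p = 0.00142), SPRY4 4.22-fold lower (-2.08 ± 0.43, adjusted p = 0.00421) and SPRY2 1.96-fold lower (-0.97 ± 0.31, adjusted p = 0.0381). PHLDA1 (-0.91 ± 0.32, adjusted p = 0.0573), ETV4 (-0.73 ± 0.28, adjusted p = 0.0832) and DUSP6 (-0.71 ± 0.43, adjusted p = 0.264) did not pass, and the other 4 genes lay between -0.19 and 0.27. In all, DUSP5, SPRY2, SPRY4, ETV4 and PHLDA1 had every A2058 library below every library of the other lines, which 11.9% of all tested genes also had, and none had every A2058 library above, against 10.6%.

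**Figure D3:**
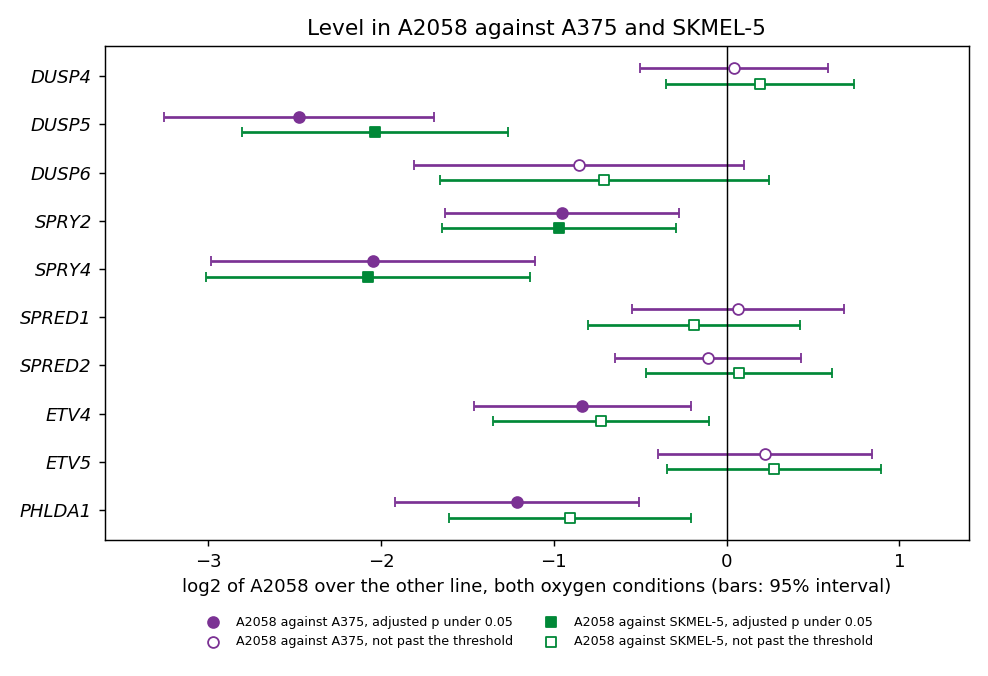
log2 of the A2058 level over that of A375 (circles) and of SKMEL-5 (squares), both oxygen conditions weighted equally, with 95% intervals; filled points passed an adjusted p of 0.05. DUSP5 and SPRY4 lie near -2 in both comparisons, and DUSP4, SPRED1, SPRED2 and ETV5 lie between -0.19 and 0.27.

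Only DUSP5 and SPRY4 kept these calls whichever 1 library was left out, with adjusted p up to 0.00976 for DUSP5 and 0.0254 for SPRY4. SPRY4 was at -2.87 and -2.89 without A2058 hypoxia 1 and at -1.67 and -1.70 without A2058 hypoxia 2. Against A375, SPRY2 kept its call without A2058 normoxia 2, A2058 hypoxia 1, A375 hypoxia 2 or either hypoxic SKMEL-5 library and lost it without any of the other 7 (adjusted p 0.0542 to 0.157). ETV4 kept it only without A2058 hypoxia 1 or A375 hypoxia 2 (0.0605 to 0.162 without each of the other 10). PHLDA1 lost it without A2058 normoxia 1, A2058 hypoxia 2, A375 normoxia 1 or A375 hypoxia 1 (adjusted p 0.050013 to 0.0717). Against SKMEL-5, SPRY2 kept its call without A2058 normoxia 2, A2058 hypoxia 1, SKMEL-5 hypoxia 2 or either hypoxic A375 library and lost it without any of the other 7 (0.0541 to 0.148), PHLDA1 gained one without SKMEL-5 hypoxia 2 or either hypoxic A375 library, and ETV4 gained one without A2058 hypoxia 1. DUSP6 was called in both comparisons without A2058 hypoxia 1, at -1.72 against A375 (adjusted p = 0.00405) and -1.57 against SKMEL-5 (adjusted p = 0.00637).

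Without the 3 hypoxic libraries that stood apart, DUSP5 was at -1.90 ± 0.33 against A375 (adjusted p = 0.00632) and -1.78 ± 0.33 against SKMEL-5 (adjusted p = 0.00809), and SPRY4 at -1.78 ± 0.28 (adjusted p = 0.00397) and -1.64 ± 0.28 (adjusted p = 0.00553). SPRY2 then had -0.56 and -0.57, ETV4 -0.46 and -0.41, and PHLDA1 -1.004 and -0.64, none past the threshold (adjusted p 0.0980 to 0.300). In normoxia alone DUSP5 was called in both comparisons (-1.80 and -1.76, adjusted p = 0.0345 and 0.0368) and SPRY4 in neither (-1.90 and -1.98, adjusted p = 0.0629 and 0.0524). In hypoxia alone both were called in both comparisons, DUSP5 at -3.15 and -2.30 (adjusted p = 0.00235 and 0.0105) and SPRY4 at -2.20 and -2.17 (adjusted p = 0.0315 and 0.0354).

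Between A375 and SKMEL-5 none of the 10 differed (edgeR, 0 under an unadjusted p of 0.05), beside 0.0102% of all tested genes, 0.00509% in each direction. The log2 values ran from -0.26 for SPRED1 to 0.44 for DUSP5, and the interval of DUSP5 ran from -0.30 to 1.18.

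Marker genes of cell types also differed between A2058 and the other lines. The summed level of 8 melanocyte markers was 2584 to 8009 CPM in A2058, 867 to 1364 in A375 and 926 to 1570 in SKMEL-5, with 6 of 8 higher in A2058 than in A375 and 5 of 8 higher than in SKMEL-5. Fibroblast markers (6 genes) summed to 24.5 to 106 CPM in A2058, 13.05 to 15.5 in A375 and 9.27 to 19.4 in SKMEL-5, with 5 and 4 of them higher in A2058 and PDGFRB lower in both comparisons. Keratinocyte markers (4 genes) summed to 43.3 to 75.3, 50.2 to 144 and 78.6 to 103 CPM, mostly KRT10, with KRT5 at 0 in A2058 and KRT1 at 0 in both other lines, and blood cell markers (5 genes) to at most 0.489, 3.05 and 0.715 CPM. Their part in the differences of the 10 genes was not tested.

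Within lines, which genes varied together depended on the libraries included. After each line's mean was subtracted from log2 CPM, DUSP6 and SPRY4 had a Pearson's r of 0.93 over the 12 libraries, SPRY4 and SPRED2 of 0.87, DUSP6 and SPRED2 of 0.85, and DUSP6 and ETV5 of 0.83. Without A2058 hypoxia 2 these were 0.58, 0.58, 0.50 and 0.75, and without the 3 libraries that stood apart 0.71, 0.77, 0.37 and 0.64. DUSP6 and ETV4 turned from 0.66 to -0.67 and -0.63. Among DUSP5, SPRY2 and PHLDA1, r was 0.69 for DUSP5 and PHLDA1, 0.67 for DUSP5 and SPRY2 and 0.66 for SPRY2 and PHLDA1. Without the 3 apart libraries it was 0.80, 0.30 and 0.73, and DUSP4, at 0.24 with PHLDA1 over all 12, was then at 0.90. ETV5 and PHLDA1 had -0.54, and 0.09 without the 3, and DUSP6 and PHLDA1 had -0.19, and 0.65 without the 3. These values are descriptions over points that share libraries.

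**Figure D4:**
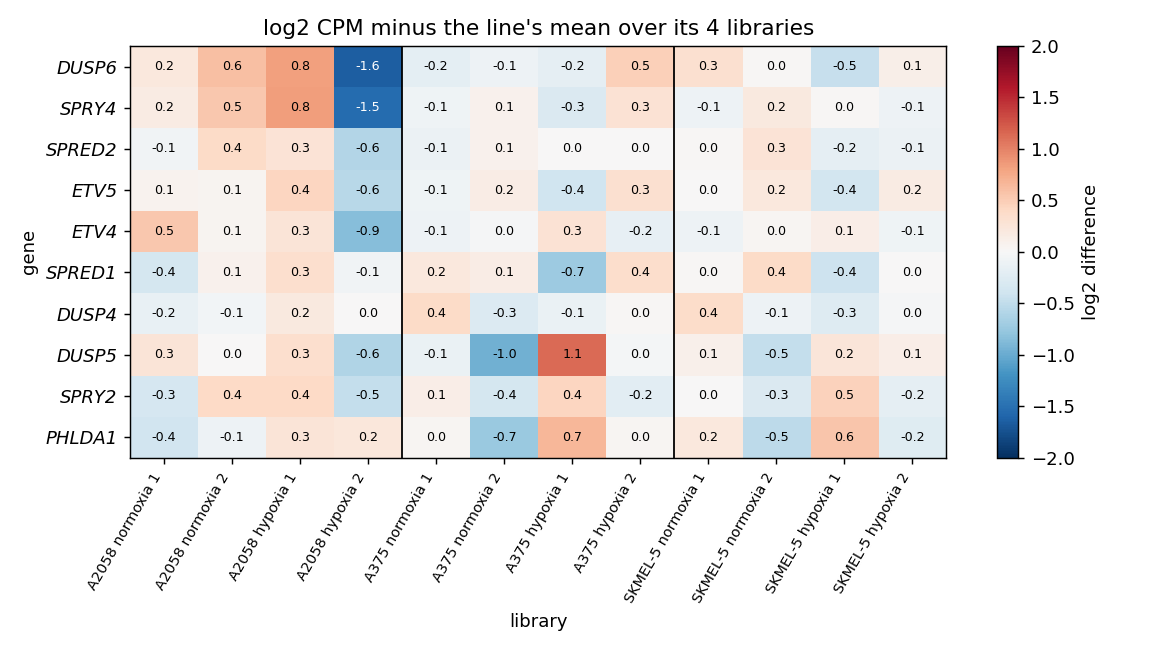
log2 CPM of each gene in each library minus that line's mean over its 4 libraries, with no prior count. Red is above and blue below the line's mean. The A2058 hypoxia 2 column is lowest for DUSP6 and SPRY4, and A375 hypoxia 1 is highest for DUSP5 and PHLDA1 among the A375 libraries and lowest for SPRED1.

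The 2 hypoxic libraries of a line differed from each other more than the conditions did for several genes. In A2058, hypoxia 2 was below hypoxia 1 by -2.46 on the log2 scale for DUSP6, -2.37 for SPRY4, -1.12 for ETV4 and -0.99 for ETV5, while PHLDA1 (-0.04) and DUSP4 (-0.19) were close. In A375, hypoxia 1 was above hypoxia 2 by 1.18 for DUSP5 and 0.63 for PHLDA1 and below it by -1.09 for SPRED1 and -0.71 for ETV5. In SKMEL-5, hypoxia 1 was above hypoxia 2 by 0.80 for PHLDA1 and 0.63 for SPRY2 and below it by -0.57 for DUSP6 and -0.53 for ETV5. SPRY2 differed by 0.64 in A375 and by -0.88, hypoxia 2 below hypoxia 1, in A2058. Normoxic replicates of A375 and SKMEL-5 differed likewise for some of these genes: replicate 1 was above replicate 2 by 0.78 and 0.73 for PHLDA1, by 0.83 and 0.58 for DUSP5 and by 0.48 and 0.30 for SPRY2.

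Outside the 10 genes, the pattern most like that of DUSP6 within lines was that of its antisense neighbour ENSG00000274021 (r = 0.95 over 12 libraries, 0.78 without A2058 hypoxia 2; mean 1.59 CPM), then SMIM10L1 (0.95 and 0.78; 42.7 CPM) and TMEM44-AS2 (0.94 and 0.75; 0.625 CPM). The reads of the first cannot be told apart from those of DUSP6.

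The rest of the pathway was described with 8 lists of 92 genes, 91 of them tested. In the 3-line mean of hypoxia, 1 of 91 was called higher and 0 lower, about the share of all tested genes (0.978% higher and 0.143% lower). This was ERRFI1, an inhibitor of EGFR-family receptors. It had 46.8 and 55.0 CPM in A2058 normoxia and 85.2 and 71.0 CPM in A2058 hypoxia, 275 and 204 CPM in A375 normoxia and 635 and 498 CPM in A375 hypoxia, and 215 and 229 CPM in SKMEL-5 normoxia and 405 and 582 CPM in SKMEL-5 hypoxia. Hypoxic libraries were above normoxic ones in each line, as for 4.86% of all tested genes. The log2 difference was 1.00 ± 0.20 (edgeR adjusted p = 0.0429), and the call held without A375 hypoxia 2 and was lost without any of the other 11 libraries (up to adjusted p = 0.199).

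Other genes with the smallest p of their list under hypoxia, none past the threshold, were DUSP1, a phosphatase of stress kinases (1.44 ± 0.47, adjusted p = 0.149), the early gene MAFF (0.91 ± 0.29, 0.146), the receptor PDGFRA (1.19 ± 0.37, 0.134), the RAS regulator LZTR1 (-0.84 ± 0.22, 0.0905), the kinase BRAF (1.10 ± 0.34, 0.135), the ERK-activated kinase MKNK2 (0.63 ± 0.22, 0.168) and the transcription factor ETS2 (0.71 ± 0.29, 0.222). BRAF was at 116 CPM in A375 hypoxia 1 and 88.2 CPM in SKMEL-5 hypoxia 1, and at 19.0 to 39.9 CPM elsewhere. MAFF was at 194 and 87.7 CPM in the same libraries and at 32.8 to 61.5 CPM elsewhere. Without A375 hypoxia 1 the differences were 0.72 for BRAF and 0.56 for MAFF, and without A375 hypoxia 2 they were 1.31 and 1.11. DUSP1 was at 67.6 CPM in A2058 hypoxia 2 and 63.4 CPM in A375 hypoxia 1 and at 7.79 to 14.9 CPM in the other 10 libraries. Its difference was 0.85 without A2058 hypoxia 2, 0.88 without A375 hypoxia 1 and 1.69 without A375 hypoxia 2.

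Between lines, 21 of the 91 pathway genes were lower and 7 higher in A2058 than in A375, and 20 lower and 7 higher than in SKMEL-5, beside 14.2% lower and 13.4% higher, and 13.9% and 12.9%, of all tested genes. The list of 17 ERK-driven early and output genes had 8 lower and 0 higher in each comparison, with a median log2 of -1.47 against A375 and -1.299 against SKMEL-5, beside -0.06 and -0.05 over all tested genes. FOSB, an AP-1 subunit, averaged 1.301 ± 0.58 CPM in A2058, 31.3 ± 26.8 CPM in A375 and 14.9 ± 2.82 CPM in SKMEL-5 (SD, n = 4), a log2 difference of -4.52 ± 0.41 and -3.62 ± 0.39 (adjusted p = 2.17e-05 and 7.01e-05). EGR1, an immediate early transcription factor, averaged 6.64 ± 4.47, 85.2 ± 70.9 and 66.1 ± 51.9 CPM (-3.51 ± 0.71 and -3.24 ± 0.71, adjusted p = 0.00382 and 0.00586). Both genes passed whichever 1 library was left out, but their values moved: FOSB against A375 to -3.92 without A375 hypoxia 1, and EGR1 to -4.72 and -4.45 without A2058 hypoxia 1 and, against SKMEL-5, to -2.49 without SKMEL-5 hypoxia 1.

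The other feedback inhibitors did not share 1 direction. ERRFI1 was lower in A2058 (-2.55 ± 0.26 and -2.39 ± 0.26, adjusted p = 4.06e-05 and 6.07e-05), as was SPRED3, a relative of SPRED1 and SPRED2 (-2.72 ± 0.44 and -3.05 ± 0.45, adjusted p = 0.00101 and 5.31e-04), at -3.34 and -3.67 without A2058 hypoxia 1. SPRY1, a Sprouty paralog, was higher at 45.2 ± 28.2 CPM in A2058 beside 16.3 ± 8.87 in A375 and 16.4 ± 6.65 in SKMEL-5 (1.46 ± 0.35 and 1.34 ± 0.34, adjusted p = 0.00901 and 0.0145), against SKMEL-5 not without A2058 normoxia 1, A2058 hypoxia 2, SKMEL-5 normoxia 2 or SKMEL-5 hypoxia 1 (up to adjusted p = 0.0624). DUSP9, an ERK phosphatase, was higher too (1.52 ± 0.37 and 1.61 ± 0.37, adjusted p = 0.0104 and 0.00776), against A375 not without A2058 hypoxia 2 or A375 normoxia 1 (up to 0.0567). Sprouty genes thus stood on both sides, SPRY2 and SPRY4 lower and SPRY1 higher in A2058.

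Upstream, 2 of 17 receptors and adaptors were lower and 2 higher in A2058 in each comparison, shares no larger than those of all tested genes given above. EGFR averaged 0.293 ± 0.315 CPM in A2058, 13.9 ± 7.26 CPM in A375 and 15.2 ± 9.26 CPM in SKMEL-5 (-6.51 ± 0.73 and -6.56 ± 0.73, adjusted p = 8.22e-05 and 7.92e-05), at -5.84 without A375 hypoxia 2 and -5.90 without SKMEL-5 normoxia 2, and the receptor PDGFRB was also lower (-2.95 ± 0.31 and -2.63 ± 0.30, adjusted p = 4.91e-05 and 9.92e-05). The receptor KIT ran from 3.497 to 55.4 CPM in A2058 and had 0 counts in A375 and SKMEL-5; against 3 counts per library its mean of 17.4 CPM was at least 193-fold and 243-fold higher. Without A2058 hypoxia 2 its mean was 4.76 CPM, at least 52.8-fold and 66.6-fold higher. GAB1, an adaptor, was higher (1.503 ± 0.32 and 1.28 ± 0.32, adjusted p = 0.00495 and 0.0117), against SKMEL-5 not without A2058 hypoxia 2 or SKMEL-5 normoxia 1 (up to 0.0594).

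Among RAS proteins and their inactivators, DAB2IP was higher (1.19 ± 0.27 and 1.15 ± 0.27, adjusted p = 0.00732 and 0.00889) and RASA1 lower (-1.02 ± 0.29 and -0.999 ± 0.29, adjusted p = 0.0234 and 0.0263). RASA1 lost both calls without A2058 normoxia 1, A2058 hypoxia 1 or A2058 hypoxia 2, that against A375 also without A375 normoxia 1, A375 normoxia 2 or A375 hypoxia 2, and that against SKMEL-5 also without SKMEL-5 normoxia 2 or SKMEL-5 hypoxia 2 (up to 0.0937). In the RAF, MEK and ERK list, ARAF was lower (-0.90 ± 0.20 and -0.82 ± 0.20, adjusted p = 0.00689 and 0.0115), against SKMEL-5 not without A2058 normoxia 1, A2058 hypoxia 2 or SKMEL-5 hypoxia 1 (up to 0.0536). KSR2, a scaffold, had at most 2 counts per A2058 library and averaged 3.83 ± 0.82 CPM in A375 and 3.44 ± 1.21 in SKMEL-5. Of the kinases below ERK, RPS6KA2 (-1.78 ± 0.32 and -1.31 ± 0.31, adjusted p = 0.00180 and 0.00983) and MKNK2 (-1.60 ± 0.27 and -1.67 ± 0.27, adjusted p = 0.00130 and 0.00103) were lower and RPS6KA5 higher (1.25 ± 0.30 and 1.35 ± 0.30, adjusted p = 0.00982 and 0.00682). The ETS factors ELK1 (-1.003 ± 0.22 and -0.96 ± 0.22, adjusted p = 0.00536 and 0.00681) and ELK4 (-1.63 ± 0.42 and -1.36 ± 0.42, adjusted p = 0.0145 and 0.0336), which work with SRF at early genes, were lower; ELK4 lost its call against both without A2058 hypoxia 2 and against SKMEL-5 also without A2058 normoxia 1, SKMEL-5 normoxia 2 or SKMEL-5 hypoxia 1 (up to 0.131), and was at -2.26 and -1.98 without A2058 normoxia 2.

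**Figure D5:**
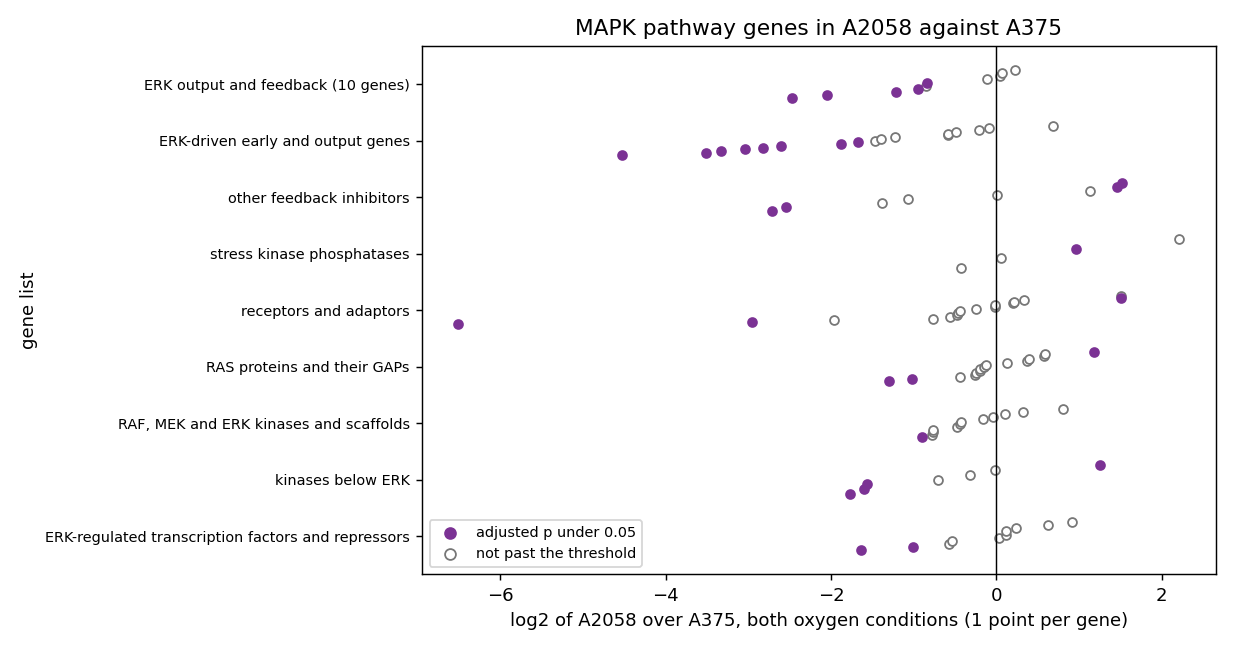
log2 of A2058 over A375 for the 10 genes and the 8 other pathway lists, 1 point per tested gene, filled where the adjusted p was under 0.05; KIT and KSR2, at or near 0 counts in 1 line, are not drawn. The 10 genes and the ERK-driven early and output genes have filled points only to the left of 0, 5 and 8 of them, and the other feedback inhibitors have 2 on either side.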

How the data were processed

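What the authors deposited is a single table of raw read counts, not normalized, with 12 library columns. Per the submitters' processing notes, bcl2fastq 2.20, Trim Galore 0.6.1, STAR 2.5.0a and GRCh38 were used; per the labels' protocols, RNA came from an RNeasy kit and libraries from a NuGen Universal Plus mRNA kit. Which counting tool, strand setting and annotation release were used is not given in the sources used here. Columns were matched to samples by title. Symbols came from a table of gene names (60445 of 60656 IDs, version ignored), positions and exon lengths from GENCODE on GRCh38 (58438 IDs).

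The tests used edgeR 4.0.16 under R 4.3.3: filterByExpr (minimum count 10, minimum total 15; 19636 genes), TMM scaling, and a quasi-likelihood model with 1 mean per group over all 12 libraries (6 residual and 5.02 prior degrees of freedom, biological coefficient of variation 0.453). Adjusted p (Benjamini-Hochberg, over all tested genes) had to be below 0.05 for a call and come from edgeR where no tool is given. The SE of a log2 value is its size divided by the root of F. CPM are counts per 1000000 after TMM scaling, and log2 CPM had a prior count of 2. The within-line figure and the differences between replicate libraries used log2 CPM with no prior count. Differences from a count of 0 used 3 counts per library, a limit that covers counting error only. The procedure was tested on simulated counts.

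The members and lists were chosen with earlier results of these data known. Named were the 10 genes, CA9 and VEGFA; from each other list up to 2 genes per direction called under hypoxia, or the smallest p; up to 2 per direction called in A2058 against both lines; and the 3 genes most like DUSP6. Other genes were named after their values were seen. Alternatives were DESeq2 1.42.0 and its size factors, limma-voom 3.58.1, other count filters, a replicate block, 1 library left out, the 3 apart libraries left out, 2 lines, and 1 oxygen condition; a block with crossed numbers and KIT without A2058 hypoxia 2 were added after seeing the data. Replicates of each group differed by more than sampling noise (median chi-square per gene 12.5 to 63.2). Expected counts for this came from library totals without TMM scaling, so the values also hold any scaling difference between replicates.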

Additional observations from a re-analysis of the deposited data

Results flagged for a closer look

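DUSP6 in A375 hypoxia 2, at 271 CPM, was set off from the other 3 A375 libraries, at 171 to 181 CPM. Its gap to the nearest of them was 0.870507 of the range of log2 CPM over the line's 4 libraries, above Dixon's 95% critical value for 4 values. The 4 libraries span both oxygen conditions, and the other hypoxic A375 library was at 172 CPM. It was the 1 of 30 sets of a line and a gene past that value, and chance gives about 1 in 20.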

How the results depend on the processing

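None of the 10 genes was called for hypoxia in the mean of the 3 lines under any alternative run, although the number of all genes called moved from 220 to 1543 with DESeq2, 1855 with no count filter, 91 with a replicate block, 30 without the 3 apart libraries and 15 to 1120 with 1 library left out. The 3-line log2 of DUSP4 and SPRED1 turned to 0.036 and 0.0032 in the mean of A2058 and A375. Without the 3 apart libraries that of DUSP6 turned to 0.29, SPRY4 to 0.18, SPRED1 to 0.12 and ETV5 to 0.21, and by line DUSP5 in A2058 turned to 0.17, DUSP6 in A2058 to 0.37, SPRED1 in A375 to 0.13 and PHLDA1 in SKMEL-5 to -0.14. With 1 library left out the 3-line values ran from -0.17 to 0.052 for DUSP4, -0.69 to 0.15 for DUSP6, -0.0034 to 0.31 for SPRY2, -0.66 to 0.14 for SPRY4, -0.35 to 0.016 for SPRED1, -0.33 to 0.063 for ETV4 and -0.28 to 0.059 for ETV5. By line they ran from -0.74 to 0.21 for DUSP5 and -2.06 to 0.41 for DUSP6 in A2058, from -0.046 to 0.58 for DUSP6 and -0.93 to 0.14 for SPRED1 in A375, and from -0.13 to 0.79 for PHLDA1 in SKMEL-5.

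The 5 genes called lower in A2058 than in A375 became 2 without the apart libraries, 1 in normoxia only, 2 in hypoxia only and 2 to 6 with 1 library left out. The 3 against SKMEL-5 became 5 with the replicate block, which added ETV4 (-0.77, adjusted p = 0.0430) and PHLDA1 (-0.84, adjusted p = 0.0378), 1 in normoxia only, 2 in hypoxia only, 2 without the apart libraries, and 2 to 5 with 1 library left out. PHLDA1 was also called against SKMEL-5 with DESeq2 (adjusted p = 0.0269) and with no count filter (0.0289), and DUSP6 against A375 with no count filter (0.0460). All genes called were 5418 and 5260, and 2532 and 2600 in normoxia only and 3093 and 2870 in hypoxia only, which are contrasts of the same 12-library model between fewer groups; between A375 and SKMEL-5 they were 2, and 33 with DESeq2, 17 with limma-voom and 58 with no filter. Uncalled levels turned against A375 in normoxia only for DUSP4 (-0.13), SPRED1 (-0.20) and SPRED2 (0.033), without the apart libraries for SPRED1 (-0.031) and SPRED2 (0.10), and against SKMEL-5 for DUSP4 in normoxia only (-0.055) and SPRED1 in hypoxia only (0.15). With 1 library left out they ran against A375 from -0.11 to 0.22 for DUSP4, -0.14 to 0.39 for SPRED1, -0.36 to 0.078 for SPRED2 and -0.076 to 0.43 for ETV5, and against SKMEL-5 from -0.18 to 0.26 for SPRED2 and -0.021 to 0.48 for ETV5. The cause of these changes was not tested.

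Replicate numbers were not taken to pair the samples in the main model. Same-numbered deviations had r = -0.30 for A2058, 0.23 for A375 and 0.26 for SKMEL-5. These values do not settle whether the cultures were paired. ERRFI1 lost its hypoxia call under the block (1.00, adjusted p = 0.0919). Crossing the numbers in A2058, added after seeing the data, gave 609 genes called for hypoxia and 0 of the 10. Precision was limited by 2 libraries per group, which left 3-line intervals as wide as -0.89 to 0.66 for DUSP6.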
